A study of Mus musculus with 12 samples.

Results

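The genes described here are 10 genes of autophagy, the route by which a cell encloses its own material in a membrane and delivers it to the lysosome for breakdown. They were chosen by name and role out of 54356 annotated genes. Ulk1 and Becn1 start it, Map1lc3a, Map1lc3b and Gabarapl1 coat the growing membrane, Sqstm1 and Bnip3 bring cargo, and Tfeb, Tfe3 and Mitf are transcription factors. They were measured in interscapular brown adipose tissue, the depot between the shoulder blades that makes heat in rodents.

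The cold group was 6 male C57BL/6N mice aged 20 weeks that were housed singly at 4 °C for 24 h. The ctrl group was 6 male C57BL/6N mice of the same age from a colony kept at 22 to 24 °C. The treatment text is attached to the ctrl animals too and was read as meant for the cold ones. How ctrl animals were housed on the last day is not given, and if they were not alone, single housing and cold cannot be told apart. The labels were followed where other text departs from them, with 3 animals counted in the series text and another fat depot named in the extraction protocol. Polyadenylated RNA of each animal was sequenced as its own strand-specific library, so the p-values measure the spread between animals. Single animals are named by group and mouse number.

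The kinase ULK1 answers to nutrient and energy signals and activates a lipid kinase complex built around Beclin 1, the product of Becn1, which marks the site where the autophagosome forms. Proteins of the ATG8 family, which splits into LC3 and GABARAP branches, are then joined to a membrane lipid, and cargo receptors such as p62, the product of Sqstm1, bind to them and are degraded along with the cargo. TFEB, TFE3 and MITF are related factors that bind E-box sequences and switch on lysosomal and autophagy genes when mTORC1, which keeps them in the cytoplasm, is inactive. Much of their control, and the flux through the pathway, is set on proteins, which messenger RNA levels do not report.

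Libraries held 16989585 to 31423954 estimated reads in cold animals and 15984872 to 26823491 in ctrl animals. Of the 13876 genes tested, 31.6% passed the test (edgeR's quasi-likelihood test, Benjamini-Hochberg adjusted p under 0.05), 2246 of them higher and 2134 lower in cold. Ppargc1a, a coactivator induced by cold in brown fat, had a log2 fold change of 2.55 ± 0.16 (SE; edgeR adjusted p = 3.08e-08). Ucp1, the uncoupling protein that marks brown adipocytes, had 0.22 ± 0.11 (edgeR adjusted p = 0.135), and the summed level of 8 brown adipocyte markers was higher in cold, from 25851 to 35075 CPM (estimated counts scaled to a common library size by TMM) in cold animals and from 20607 to 28561 CPM in ctrl animals (exact permutation p = 0.0173, adjusted p = 0.0462 over 8 marker lists). By gene these 8 were mixed: edgeR called 3 higher, 1 lower and 4 not, with log2 fold changes from -0.63 to 0.48. The summed level of 12 skeletal muscle markers ran from 172 to 4921 CPM in cold animals and from 116 to 1559 CPM in ctrl animals. By gene their log2 fold changes ran from 0.67 to 1.96 (median 1.15), all toward cold. Of the 12, 0 passed edgeR's test, while 1 (Mb) had an unadjusted p under 0.05. Summed fibroblast markers were lower, 173 to 256 CPM in cold animals and 221 to 380.4 CPM in ctrl animals (exact permutation p = 0.0152, adjusted p = 0.0462), as were mast cell markers, given with Mitf below. The skeletal muscle, macrophage, endothelial, melanocyte and erythroid sums did not pass this test (exact permutation, adjusted p = 0.299 to 0.894). In whole tissue, fewer cells of a type and less RNA per cell cannot be told apart.

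All 10 genes passed the filter on low counts. In cold, 2 of them were higher (Ulk1 and Gabarapl1), 2 were lower (Sqstm1 and Bnip3) and 6 did not pass the test. The 4 calls among 10 genes stood beside the 31.6% of all tested genes called, so the count is near the background. The median log2 fold change of the 10 genes was -0.03, against -0.01 over all tested genes. The called differences were small, between -0.38 and 0.40 on the log2 scale, and for 0 of the 10 genes did the cold and ctrl animals fall into separate ranges, against 16.3% of all tested genes. None of the 10 reached a called change of at least 2-fold, which 5.04% of all tested genes did.

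**Figure D1:**
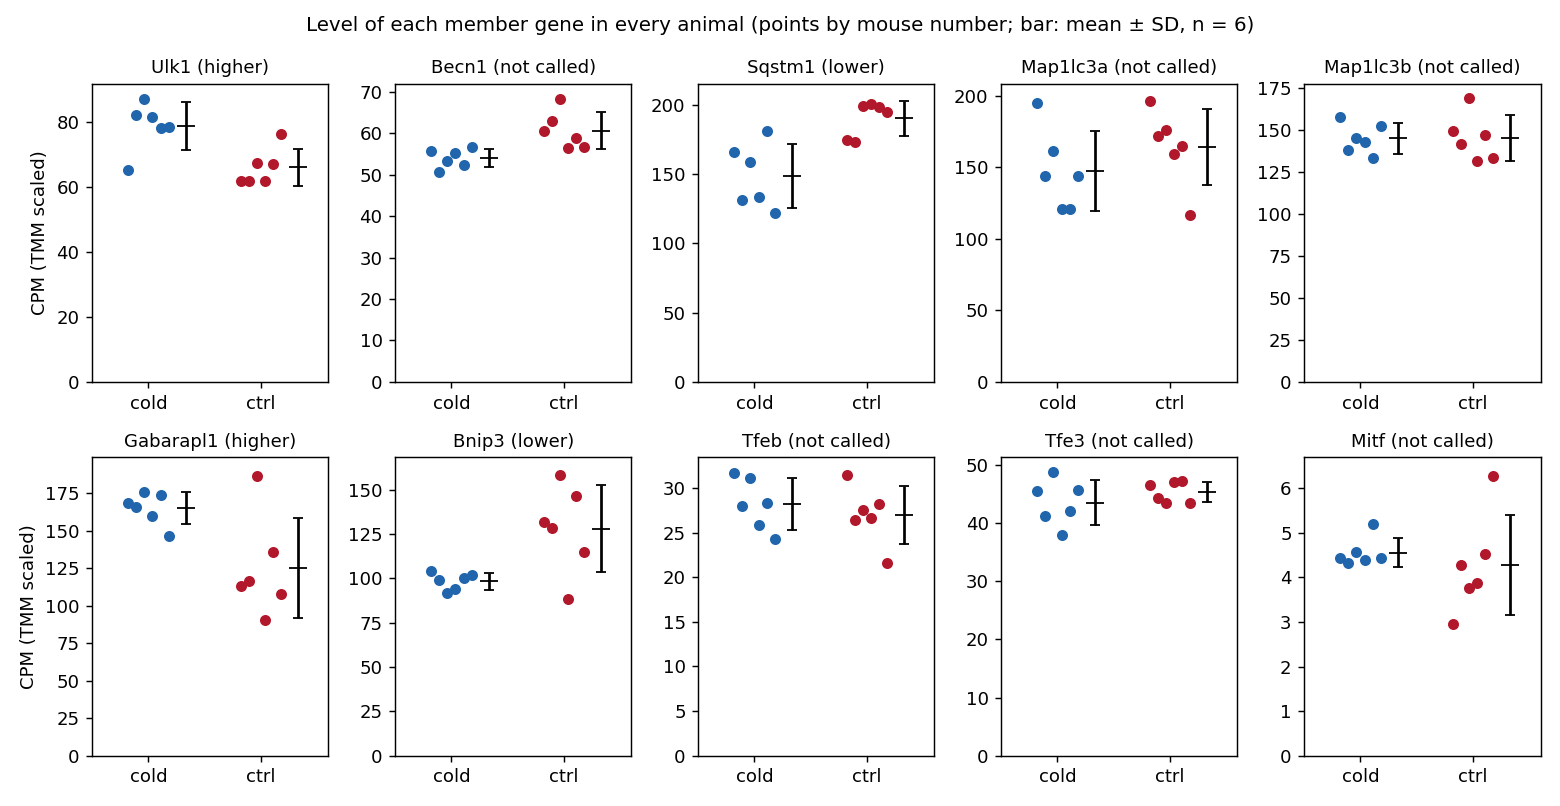
Level of each of the 10 genes in each animal, in TMM-scaled CPM on a linear axis, with cold animals left of ctrl animals; points are single animals and bars the mean with its SD (n = 6 each). Cold and ctrl ranges overlap for every gene, and the offset between groups is seen best for Sqstm1 and Ulk1.

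**Figure D2:**
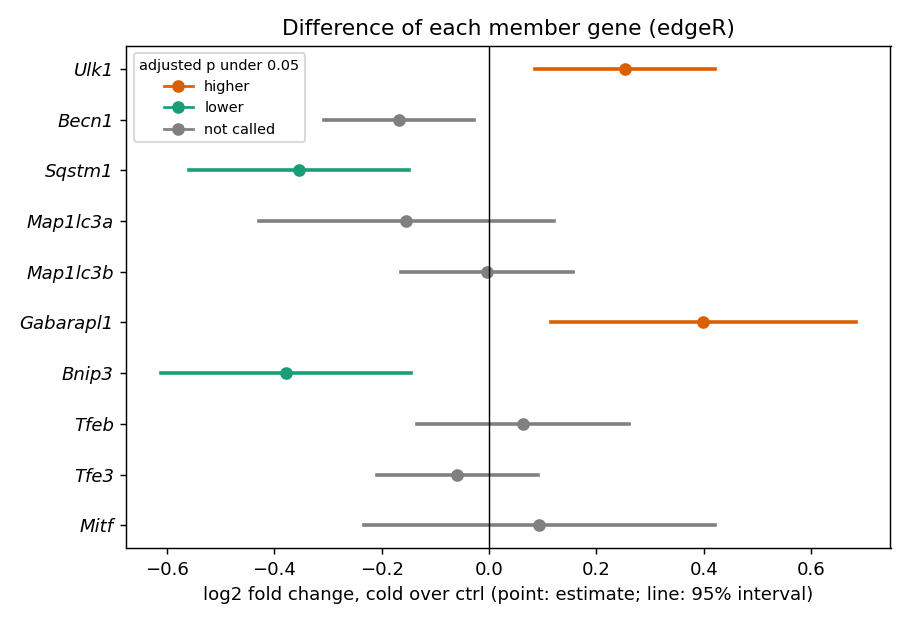
Log2 fold change of cold over ctrl for each gene, with 95% intervals computed from the estimate and F statistic of edgeR's fit. Orange marks genes called higher, green genes called lower and grey genes not called across all genes. Ulk1 and Gabarapl1 lie above 0, Sqstm1 and Bnip3 below 0, and Map1lc3b lies at 0.00.

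Levels between genes were compared as CPM per kb of transcript length. Map1lc3a stood highest in both groups, at 146 ± 24.7 CPM per kb in cold animals and 164 ± 23.4 CPM per kb in ctrl animals (SD, n = 6 each), and overlapped no other of these genes in either group. Behind it came a band of 4 genes whose neighbours overlapped. In cold animals that band ran in the order Gabarapl1 (91.2 ± 5.65 CPM per kb), Sqstm1 (76.0 ± 12.9), Map1lc3b (68.2 ± 5.93) and Bnip3 (63.3 ± 3.58). In ctrl animals it ran in the order Sqstm1 (101 ± 6.46 CPM per kb), Bnip3 (81.7 ± 13.1), Map1lc3b (72.3 ± 8.32) and Gabarapl1 (69.2 ± 18.6). Gabarapl1 thus stood first of the band in cold animals and last in ctrl animals, which is a description of the order and not a test. Becn1 stood below the band without overlap, at 38.1 ± 3.92 CPM per kb in cold animals and 42.2 ± 4.33 CPM per kb in ctrl animals. Ulk1, Tfe3 and Tfeb followed at 13.4 to 18.8 CPM per kb in cold animals and 13.0 to 15.5 CPM per kb in ctrl animals, with neighbours overlapping. Mitf was lowest and apart from all others, at 1.07 ± 0.12 CPM per kb in cold animals and 0.995 ± 0.35 CPM per kb in ctrl animals.

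Ulk1, the kinase that starts autophagy, was higher in cold. Its level was 65.3 CPM at the lowest, 80.1 at the median and 87.0 at the highest in cold animals, and 61.8, 64.6 and 76.3 CPM in ctrl animals. In 5 of the 6 cold animals it was above all ctrl animals. This was a log2 fold change of 0.25 ± 0.08 (SE; edgeR adjusted p = 0.0217). The call was lost without cold 11 (edgeR adjusted p = 0.0506), without ctrl 2 and cold 15 together (0.0755) and with an effective length offset (0.0703). Ulk1 lies at chr5:110784488-110810097 on the minus strand (GRCm38, as for all gene coordinates below).

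The partners of ULK1 in its complex were also measured. Of 5 genes of the initiation complex, Ulk1 included, 3 were higher in cold and 0 lower, with a median log2 fold change of 0.24. Counts for this list and those below are descriptions, set beside 31.6% of all tested genes called (16.2% higher and 15.4% lower). Rb1cc1, the scaffold FIP200, had 58.0 ± 6.39 CPM in cold animals and 45.4 ± 3.66 CPM in ctrl animals, a log2 fold change of 0.35 ± 0.08 (SE; edgeR adjusted p = 0.00366). Atg13, the adaptor of the complex, had 0.24 ± 0.08 (edgeR adjusted p = 0.0252). Ulk2, the paralog of Ulk1, did not pass the test, at 35.02 ± 4.60 CPM in cold animals and 40.6 ± 2.88 CPM in ctrl animals and a log2 fold change of -0.22 ± 0.09 (edgeR adjusted p = 0.0881). It passed in 1 of 22 alternatives, with a term for mouse number (log2 fold change -0.25, edgeR adjusted p = 0.0262). The count of 3 fell to 1 without cold 11 alone and without ctrl 2 and cold 15 together, and to 0 with an effective length offset.

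Becn1, the core of the lipid kinase complex, did not pass the test. It had 50.8 CPM at the lowest, 54.3 at the median and 56.8 at the highest in cold animals, and 56.4, 59.8 and 68.4 CPM in ctrl animals. The level in 5 of the 6 cold animals was below all ctrl animals. Its log2 fold change was -0.17 ± 0.07 (95% interval -0.31 to -0.03; edgeR adjusted p = 0.0638). It lies close to the threshold and passed it with DESeq2 (adjusted p = 0.0380), with a count minimum of 50 (edgeR adjusted p = 0.0353) and without cold 4 (0.0402). Becn1 lies at chr11:101285952-101302286 on the minus strand.

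Of 8 genes of the lipid kinase complexes 2 were higher in cold and 0 lower (25% called, beside 31.6% of all tested genes), with a median log2 fold change of 0.03. Nrbf2, a subunit that promotes the form of the complex used in autophagy, had 33.01 ± 3.11 CPM in cold animals and 21.1 ± 3.56 CPM in ctrl animals, a log2 fold change of 0.64 ± 0.11 (SE; edgeR adjusted p = 2.44e-04). Ambra1, a scaffold that links the complex to ULK1, had 0.21 ± 0.08 (edgeR adjusted p = 0.0497), a call that was lost in 16 of 22 alternatives. Among 10 genes of membrane supply and lipid binding 1 was higher and 1 lower (20% called), or 2 and 0 with library totals in place of TMM scaling. Without cold 4 there were 3 higher, and without each of cold 11, 12, 15 and 16 and ctrl 6 and 10 in turn 0 lower. Vmp1, an endoplasmic reticulum protein needed for autophagosome growth, had 0.35 ± 0.08 (edgeR adjusted p = 0.00236), and Wdr45, a lipid-binding propeller protein, had -0.30 ± 0.10 (edgeR adjusted p = 0.0289), lost in 9 of 22 alternatives.

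The ATG8 genes were not all called alike, and no test between their fold changes is given. Gabarapl1, of the GABARAP branch, was higher in cold, while the LC3 genes Map1lc3a and Map1lc3b did not pass the test. Gabarapl1 had 147 CPM at the lowest, 167 at the median and 176 at the highest in cold animals, and 90.8, 115 and 187 CPM in ctrl animals. All 6 cold animals were above the ctrl median, and the ranges overlapped through ctrl 6, which held the 187 CPM. The log2 fold change was 0.40 ± 0.13 (SE; edgeR adjusted p = 0.0322), or 0.55 (edgeR adjusted p = 4.14e-04) without ctrl 6. The call was lost in 9 of 22 alternatives: without each of cold 4, 7, 11 and 15 and ctrl 2, 5, 9 and 14 in turn (edgeR adjusted p = 0.0542 to 0.0693), and without ctrl 2 and cold 15 together (0.113). Gabarapl1 lies at chr6:129533160-129542346 on the plus strand.

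Map1lc3b, whose product is the usual protein marker of autophagosomes, had 133 CPM at the lowest, 144 at the median and 158 at the highest in cold animals, and 132, 144 and 169 CPM in ctrl animals. These ranges nearly coincide. In log2 fold change this was 0.00 ± 0.08 (95% interval -0.16 to 0.16; edgeR adjusted p = 0.979). Map1lc3a, the LC3 gene of highest level here, had 120.5, 144 and 195 CPM in cold animals and 117, 168 and 196 CPM in ctrl animals. The ranges again overlapped over nearly their whole width. Its log2 fold change was -0.15 ± 0.13 (95% interval -0.43 to 0.12; edgeR adjusted p = 0.402). Map1lc3b lies at chr8:121590361-121598760 and Map1lc3a at chr2:155276297-155278073, both on the plus strand. Processed pseudogenes near-identical to Map1lc3b held reads equal to 1.38% of its own, nearly all of them in Gm6055, and near copies of Bnip3 0.0958% of its own.

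Reads of a pair of genes in the same library give a ratio that needs no scaling between libraries. The ratio of Gabarapl1 to Map1lc3b was 1.15 ± 0.12 in cold animals (0.963 to 1.31) and 0.852 ± 0.15 in ctrl animals (0.689 to 1.11; SD, n = 6 each). The mean log2 difference was 0.44, or 0.38 to 0.51 with each animal left out. The pairs for these ratios were picked with results of these data known, so they are given with no test. The other GABARAP genes did not pass the test: Gabarap had a log2 fold change of 0.25 ± 0.10 (edgeR adjusted p = 0.0729) and Gabarapl2 0.16 ± 0.08 (edgeR adjusted p = 0.156). Of the 5 ATG8 genes 1 was called higher (20%, beside 31.6% of all tested genes called), and 0 to 3 were called across the alternatives.

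**Figure D3:**
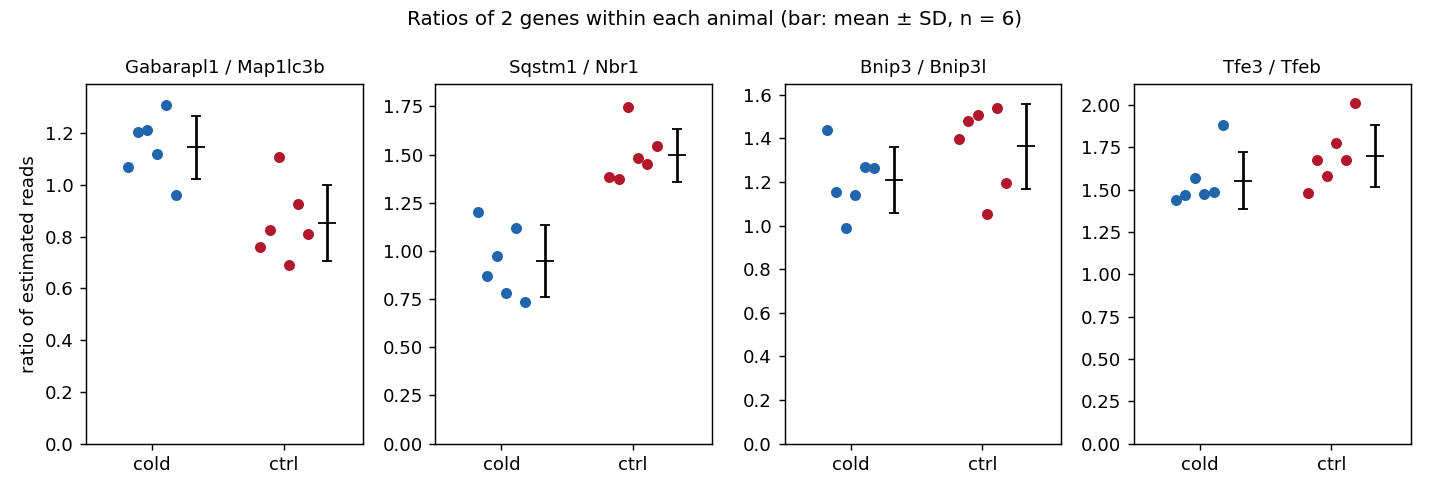
Ratio of reads of 2 genes in the same animal for 4 pairs, cold animals left of ctrl animals, with points for single animals and bars for the mean with its SD (n = 6 each). Sqstm1 to Nbr1 is the pair whose cold animals (0.737 to 1.20) and ctrl animals (1.37 to 1.75) do not overlap.

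The enzymes that process and conjugate ATG8 proteins moved in both directions. Of 11 genes 3 were higher and 2 lower in cold, with a median log2 fold change of -0.12. That was 45.5% called, beside 31.6% of all tested genes. With library totals, or without each of cold 7, 12 and 15 and ctrl 2, 6, 10 and 14 in turn, 1 was lower. Without cold 4 or cold 16 in turn 3 were lower. With each animal left out 2 to 3 were higher. Atg4d, a protease of the family that trims ATG8 proteins, had 135 ± 11.1 CPM in cold animals and 88.0 ± 8.93 CPM in ctrl animals, a log2 fold change of 0.62 ± 0.08 (SE; edgeR adjusted p = 2.42e-05). Atg7, the activating enzyme of the conjugation, was lower, with -0.39 ± 0.08 (edgeR adjusted p = 0.00191).

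Sqstm1, the gene of the cargo receptor p62, was lower in cold. It had 122 CPM at the lowest, 146 at the median and 181 at the highest in cold animals, and 173, 197 and 200.5 CPM in ctrl animals. The level in 5 of the 6 cold animals was below all ctrl animals. Sqstm1 had a log2 fold change of -0.35 ± 0.10 (SE; edgeR adjusted p = 0.0103). With library totals in place of TMM scaling, which moves the median of all genes to 0.08, it was -0.26 and the call was lost (edgeR adjusted p = 0.0981). With the muscle marker level as a covariate it was -0.41 (edgeR adjusted p = 0.00446). Sqstm1 lies at chr11:50199366-50210827 on the minus strand.

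Cargo receptor genes were called in both directions. Of 12 receptor genes 5 were higher and 2 lower in cold (58.3% called, beside 31.6% of all tested genes), with a median log2 fold change of 0.21. With each animal left out the higher count was 3 to 7, and it stayed at 5 only without ctrl 9 or ctrl 14. It was 3 without cold 11, cold 16 or ctrl 5 in turn, or without ctrl 2 and cold 15 together, and 7 without cold 4. Nbr1, a receptor that works together with p62, had 158 ± 11.8 CPM in cold animals and 127 ± 8.16 CPM in ctrl animals, a log2 fold change of 0.31 ± 0.07 (SE; edgeR adjusted p = 0.00337). The ratio of Sqstm1 to Nbr1 was 0.948 ± 0.19 in cold animals and 1.50 ± 0.14 in ctrl animals (SD, n = 6 each). No cold animal reached the lowest ctrl animal, and the mean log2 difference was -0.68, or -0.75 to -0.61 with each animal left out. As the pair joins a gene called lower with one called higher, this is a description with no test. Calcoco1 was the other lower receptor, with 57.4 ± 5.57 CPM in cold animals and 91.3 ± 9.42 CPM in ctrl animals and a log2 fold change of -0.67 ± 0.08 (edgeR adjusted p = 1.69e-05). Tex264, a receptor for endoplasmic reticulum, had 0.49 ± 0.11 (edgeR adjusted p = 0.00215).

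Bnip3 encodes a receptor in the outer mitochondrial membrane that binds ATG8 proteins and is induced by hypoxia. Its promoter window is printed because it was the only one of the 13 promoters found for 8 of these genes that held the E-box CACGTG, the core of the site that TFEB, TFE3 and MITF bind. The 300 bases, from RefSeq on GRCm38.p6, run from 250 bases before to 50 after the start of the transcript, at chr7:138909457-138909756 on the minus strand, 5′ to 3′, with the E-box in capitals.
Bnip3 promoter: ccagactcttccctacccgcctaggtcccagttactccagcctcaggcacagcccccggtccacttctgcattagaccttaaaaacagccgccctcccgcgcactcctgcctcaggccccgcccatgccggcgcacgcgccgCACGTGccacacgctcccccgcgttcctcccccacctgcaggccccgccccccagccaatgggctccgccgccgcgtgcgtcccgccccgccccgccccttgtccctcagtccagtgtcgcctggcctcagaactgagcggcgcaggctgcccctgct
The match begins 108 bases before the start. CACGTG, which reads the same on both strands, occurs in 7.15% of 32851 RefSeq mouse promoters of this length, so a match among 13 windows is a description and not a site. The AP-1 motif TGACTCA, searched on both strands and held by 5.20% of all promoters, was in 0 of the 13 windows. Becn1 and Map1lc3a had no entry.

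Bnip3 was lower in cold. It had 91.7 CPM at the lowest, 99.6 at the median and 104 at the highest in cold animals, and 88.1, 130.3 and 158 CPM in ctrl animals. All 6 cold animals were below the ctrl median. Ctrl animals spread much more widely than cold ones, with ctrl 9 lowest and ctrl 6 highest of all 12. The log2 fold change was -0.38 ± 0.11 (SE; edgeR adjusted p = 0.0145). With library totals it was -0.29 and the call was lost (edgeR adjusted p = 0.0665). With the muscle marker level as a covariate it was -0.34 (edgeR adjusted p = 0.0321). Bnip3 lies at chr7:138890836-138909519 on the minus strand.

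Bnip3l, the paralog also called Nix, had 82.2 ± 6.73 CPM in cold animals and 93.5 ± 7.50 CPM in ctrl animals, and a log2 fold change of -0.19 ± 0.08 (SE) that did not pass the test (edgeR adjusted p = 0.0706). It passed, as lower, in 4 of 22 alternatives. The ratio of Bnip3 to Bnip3l was 1.21 ± 0.15 in cold animals and 1.36 ± 0.20 in ctrl animals (SD, n = 6 each), a mean log2 difference of -0.17. Of 10 mitophagy genes 1 was higher and 3 lower in cold, with a median log2 fold change of -0.11. That was 40% called, beside 31.6% of all tested genes. With library totals 2 were higher and 2 lower, and without ctrl 14 there were 2 higher. Without each of cold 4, cold 11 and ctrl 9 in turn 4 were lower. Pink1, a kinase that builds up on damaged mitochondria, had 166 ± 19.5 CPM in cold animals and 227 ± 19.9 CPM in ctrl animals, a log2 fold change of -0.45 ± 0.09 (edgeR adjusted p = 0.00100). Bcl2l13, another outer membrane receptor, was the higher gene, with 207 ± 21.5 CPM in cold animals and 157 ± 5.02 CPM in ctrl animals and a log2 fold change of 0.40 ± 0.08 (edgeR adjusted p = 9.18e-04).

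None of Tfeb, Tfe3 and Mitf passed edgeR's test, and none had an unadjusted p under 0.05. Tfeb had 24.3 CPM at the lowest, 28.2 at the median and 31.6 at the highest in cold animals, and 21.6, 27.1 and 31.5 CPM in ctrl animals. Tfe3 had 38.04, 43.8 and 48.8 CPM in cold animals and 43.5, 45.4 and 47.2 CPM in ctrl animals. For Tfeb the ranges nearly coincide, and for Tfe3 the cold range encloses the ctrl range. Tfeb had a log2 fold change of 0.06 ± 0.09 (95% interval -0.13 to 0.26; edgeR adjusted p = 0.649). For Tfe3 it was -0.06 ± 0.07 (95% interval -0.21 to 0.09; edgeR adjusted p = 0.570). The ratio of Tfe3 to Tfeb was 1.55 ± 0.17 in cold animals and 1.70 ± 0.18 in ctrl animals (SD, n = 6 each), a mean log2 difference of -0.13. Tfeb lies at chr17:47737030-47792419 and Tfe3 at chrX:7762560-7775202, both on the plus strand.

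Mitf, the family member known from melanocytes, mast cells and osteoclasts, was scarce, with 48 to 137 reads per library. It had 4.31 CPM at the lowest, 4.43 at the median and 5.20 at the highest in cold animals, and 2.96, 4.08 and 6.27 CPM in ctrl animals. The ctrl range encloses the cold range. The log2 fold change was 0.09 ± 0.15 (95% interval -0.23 to 0.42, edgeR adjusted p = 0.690), so the interval holds changes in either direction. The SD was 0.33 CPM in cold animals and 1.11 CPM in ctrl animals. Mitf lies at chr6:97807052-98021349 on the plus strand.

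Mitf is transcribed from several start sites used in different cell types, and RefSeq places 3 of them in the promoter table. The windows of the first and the most downstream are printed, since reads were assigned to transcripts annotated to start at one and to none annotated to start at the other. They lie at chr6:97806808-97807107 and chr6:97991533-97991832 on the plus strand of GRCm38.p6, 5′ to 3′. The capitals mark TGACGTCA, the full cyclic AMP response element, in the downstream window, which drives the melanocyte form; the first window has no match.
Mitf promoter 1: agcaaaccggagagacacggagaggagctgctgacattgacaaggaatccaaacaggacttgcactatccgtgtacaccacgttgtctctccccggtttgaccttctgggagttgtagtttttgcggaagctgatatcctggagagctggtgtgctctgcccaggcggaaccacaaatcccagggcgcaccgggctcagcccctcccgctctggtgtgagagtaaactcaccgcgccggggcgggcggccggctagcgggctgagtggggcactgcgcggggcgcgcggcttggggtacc
Mitf promoter 3: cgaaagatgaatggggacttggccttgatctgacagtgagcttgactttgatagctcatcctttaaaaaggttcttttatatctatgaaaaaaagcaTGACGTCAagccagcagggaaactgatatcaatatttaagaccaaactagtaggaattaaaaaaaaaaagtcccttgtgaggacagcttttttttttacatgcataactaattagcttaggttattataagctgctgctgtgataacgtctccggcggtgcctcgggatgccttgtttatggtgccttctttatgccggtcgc
TGACGTCA reads the same on both strands and occurs in 1.79% of all 32851 promoters, and in 1 of the 13 windows here. Transcripts starting within 100 nt of the first site took 1081 of the 1086 reads assigned to Mitf, 100% in cold animals and 99.1 ± 2.15% in ctrl animals. Transcripts of the middle site and of the downstream site were assigned 0 reads in all 12 libraries. At 3 counts this allows 0.276% of Mitf reads, for counting error only, and it does not bound the use of these sites. The forms overlap, and a read past 98018707, where Mitf-201 and Mitf-203 end, can go only to Mitf-202, which ends at 98021349. How many of the 1086 reads can tell the starts apart was not tested. The other 5 Mitf reads (0.460%), all in ctrl 6, were assigned to Mitf-208, a coding form whose annotated start lies 138 nt past the downstream site. Of 6 melanocyte markers only Sox10 was abundant enough to test (log2 fold change -0.09, edgeR adjusted p = 0.743). Kit, the one mast cell marker of 6 that could be tested, was lower in cold, with a log2 fold change of -2.23 ± 0.40 (SE; edgeR adjusted p = 0.00124). The summed mast cell markers ran from 3.94 to 7.21 CPM in cold animals and from 6.89 to 34.4 CPM in ctrl animals (exact permutation p = 0.00433, adjusted p = 0.0346), and their part in the level of Mitf was not tested.

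Tfeb and Tfe3 also have several annotated start sites. For Tfeb the first site took 90.7 ± 7.85% of reads in cold animals and 83.6 ± 13.9% in ctrl animals, and the third 0.487 ± 0.88% in cold animals and 2.08 ± 2.56% in ctrl animals. For Tfe3 the first site took 71.2 ± 12.2% in cold animals and 72.7 ± 10.5% in ctrl animals (SD, n = 6 each). For the first site of both genes the means differed by less than the SD of either group. For the third Tfeb site they differed by less than the ctrl SD and by more than the cold SD. The second Tfeb site took 0% in cold animals and 1.17 ± 1.54% in ctrl animals, with reads in 3 libraries. The second Tfe3 site, at 7763943, took 1.67 ± 3.74% in cold animals and 3.01 ± 4.12% in ctrl animals. Tfe3 forms outside the 100 nt windows took 27.2 ± 14.8% in cold animals and 24.3 ± 8.67% in ctrl animals. Most of this was Tfe3-205 (22.7% in cold animals, 17.1% in ctrl animals), which starts at 7764087, past the window of the second site. Shares by start site were not tested.

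Of 19 genes in the list of this family and its nutrient regulators 18 were tested, Tfeb, Tfe3 and Mitf included, and Tfec was almost unread. Among the 18, 7 were higher and 1 lower in cold (44.4% called, beside 31.6% of all tested genes), with a median log2 fold change of 0.12. Across the alternatives 6 to 9 were higher and 0 to 2 lower, with 9 higher for library totals and 6 without ctrl 2 and cold 15 together. Flcn and Fnip1 encode the folliculin complex, which acts on Rag GTPases and thereby on the mTORC1 control of TFEB. Flcn had 161 ± 5.12 CPM in cold animals and 133 ± 16.2 CPM in ctrl animals (log2 fold change 0.28 ± 0.08, edgeR adjusted p = 0.0135). Fnip1 had a log2 fold change of 0.57 ± 0.13 (edgeR adjusted p = 0.00395), and Rptor, the mTORC1 subunit Raptor, 0.42 ± 0.09 (edgeR adjusted p = 0.00301). Rragd, a Rag GTPase gene known as a target of TFEB and TFE3, had 7.39 ± 4.59 CPM in cold animals and 2.89 ± 0.99 CPM in ctrl animals, a log2 fold change of 1.35 ± 0.38 (edgeR adjusted p = 0.0173). Its level ran from 3.85 to 15.9 CPM in cold animals and from 1.05 to 3.82 CPM in ctrl animals. The highest levels, 15.9 CPM in cold 15 and 9.32 CPM in cold 11, were in the animals with the highest summed muscle markers (4921 and 2423 CPM). The part of muscle RNA in the level of Rragd was not tested. With the muscle level as a covariate the log2 fold change of Rragd was 0.93 (edgeR adjusted p = 0.00791), without cold 15 it was 0.96 (0.0182), and with no filter the call was lost (0.0590). The lower gene was Rragb, with -0.81 (edgeR adjusted p = 0.00406).

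Of 16 lysosomal genes known as TFEB targets 7 were higher and 0 lower in cold (43.8% called, beside 31.6% of all tested genes), with a median log2 fold change of 0.22. The higher count was 5 to 10 across the alternatives, with 10 for library totals and 6 without ctrl 2 and cold 15 together. Lamp1, a membrane protein of the lysosome, had 998 ± 61.1 CPM in cold animals and 573 ± 54.7 CPM in ctrl animals, a log2 fold change of 0.80 ± 0.08 (SE; edgeR adjusted p = 1.85e-06). The cathepsin genes Ctsb and Ctsd did not pass the test, at -0.07 and 0.07 (edgeR adjusted p = 0.518 each). Of 11 genes of autophagosome fusion 3 were higher and 0 lower (27.3% called, and 6 higher with library totals or without cold 4), among them Lamp2 at 0.49 ± 0.09 (edgeR adjusted p = 3.21e-04). Over all 10 pathway lists and outside the 10 genes, 29 of 94 tested genes were higher and 7 lower, 38.3% called beside the 31.6% of all genes, with a median log2 fold change of 0.15. Lamp1 and Mcoln1 stand in 2 lists each.

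**Figure D4:**
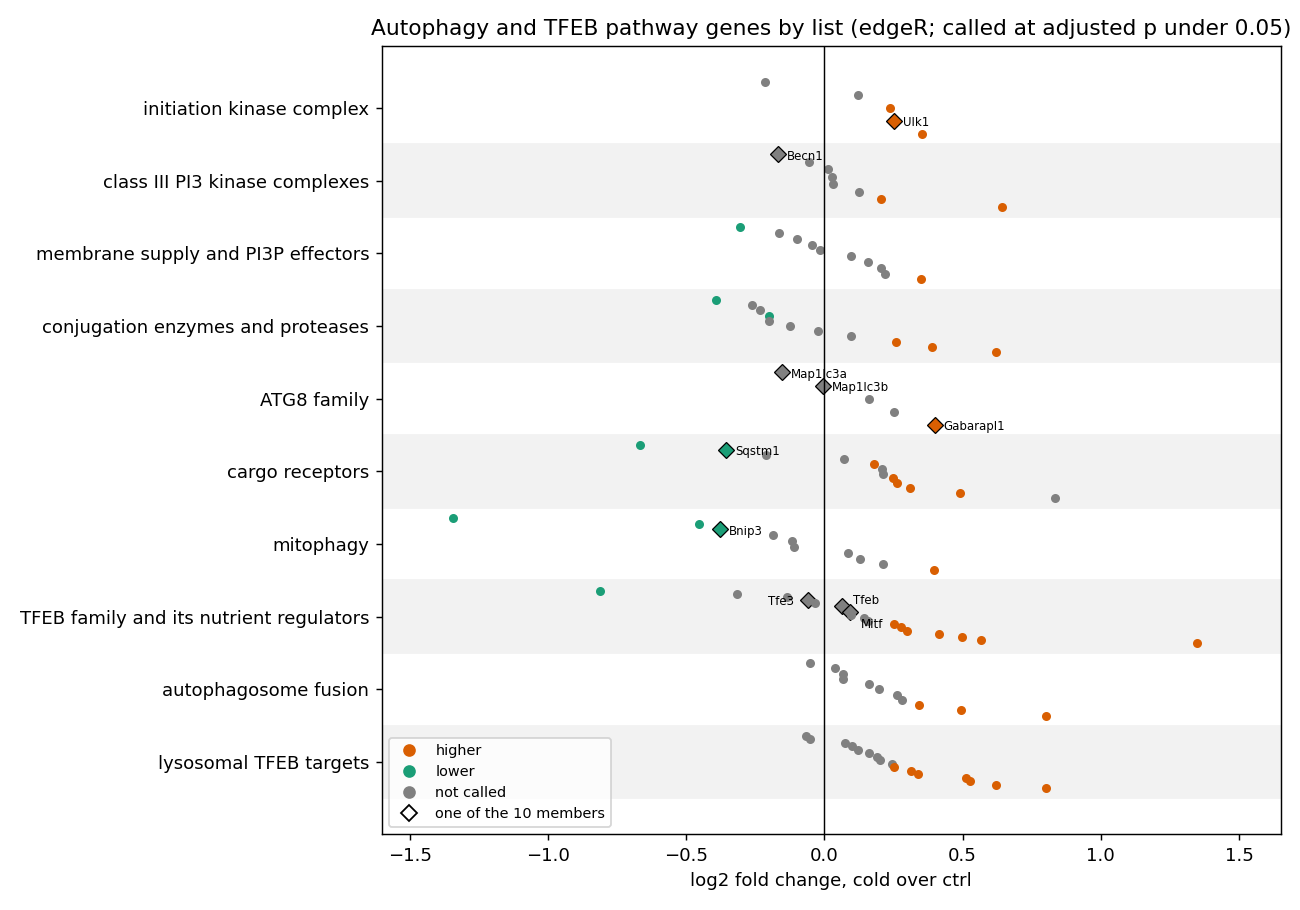
Log2 fold change of cold over ctrl for every tested gene of 10 pathway lists, 1 line per list, with points for genes, orange where called higher and green where called lower by edgeR across all genes, grey otherwise, and diamonds for the 10 genes described here. The medians of lysosomal TFEB targets (0.22) and of the initiation complex (0.24) lie right of 0, those of the conjugation enzymes (-0.12) and mitophagy genes (-0.11) left of it.

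By transcript, 35 of the 89 annotated forms of the 10 genes were abundant enough to test, and 0 passed edgeR's test, beside 10.3% of 30345 transcripts overall. At an unadjusted p under 0.05 there were 8, of which 2 were higher and 6 lower in cold. No other tool was run on transcripts. Ulk1-201, the coding form that held 90.7 ± 2.24% of Ulk1 reads in cold animals and 92.1 ± 2.27% in ctrl animals, had a log2 fold change of 0.25 ± 0.07 (edgeR adjusted p = 0.0509). Gabarapl1-201 held 99.8 ± 0.19% in cold animals and 99.7 ± 0.20% in ctrl animals and had 0.43 ± 0.14 (edgeR adjusted p = 0.0881). Sqstm1-202, with 88.8 ± 3.32% in cold animals and 85.3 ± 2.68% in ctrl animals, had -0.27 ± 0.10 (edgeR adjusted p = 0.130). Bnip3-201, with 91.3 ± 4.48% in cold animals and 91.6 ± 5.75% in ctrl animals, had -0.36 ± 0.14 (edgeR adjusted p = 0.151). The values of the genes thus rested in each case on 1 dominant coding form.

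The mix of transcripts did not pass a test of usage in any of the 8 genes with at least 2 tested forms (edgeR's diffSpliceDGE, adjusted p = 0.779 or higher), beside 1.45% of 7233 genes called. None of the 8 had an unadjusted p under 0.05, and a Simes combination also called 0. The leading coding form of Map1lc3b, Map1lc3b-201, held 87.4 ± 2.94% of Map1lc3b reads in cold animals (84.5% to 92.8%) and 82.3 ± 1.30% in ctrl animals (80.4% to 84.0%), ranges that do not overlap; this share was picked after its values were seen and was not tested on its own. Becn1 stood out by its annotation. Reads assigned to its 5 coding transcripts were 6.42 ± 1.50% of the gene in cold animals and 6.29 ± 1.19% in ctrl animals. Becn1-201, annotated as a target of nonsense-mediated decay, held 56.8 ± 3.91% in cold animals and 54.2 ± 2.59% in ctrl animals, and retained-intron forms 25.4 ± 2.86% in cold animals and 29.2 ± 3.75% in ctrl animals. Such shares are Salmon's division of reads among overlapping forms, and how well 50 nt pairs separate them was not tested.

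**Figure D5:**
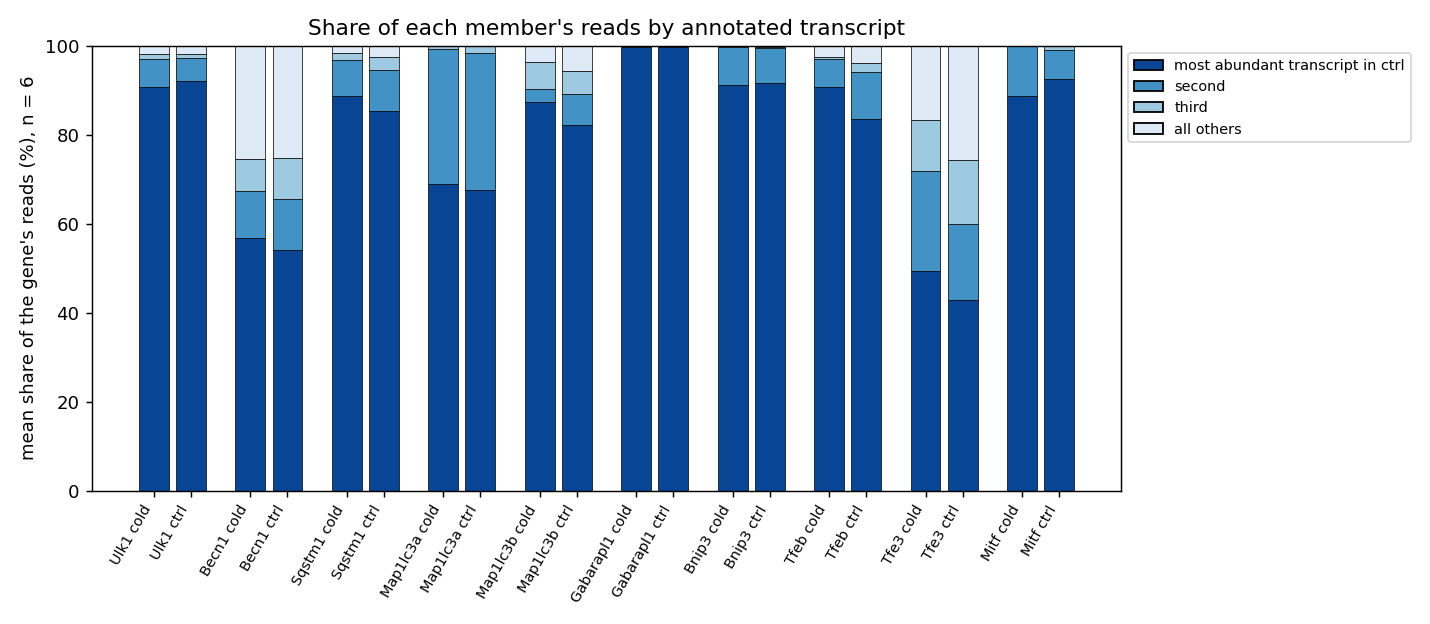
Share of each gene's reads held by its leading transcripts, in percent, as stacked means over 6 cold animals (left bar of each gene) and 6 ctrl animals (right bar), ordered by share in ctrl animals. Gabarapl1 rests on 1 form (99.8% in cold animals, 99.7% in ctrl animals), while Tfe3 and Becn1 are split among several.

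Among the 45 pairs of these genes, the levels that varied together most closely over the 12 animals after subtracting group means were Becn1 and Map1lc3b (Pearson r = 0.86), then Gabarapl1 and Bnip3 (0.82) and Map1lc3a and Tfeb (0.81). Gabarapl1 and Bnip3 thus varied together within groups, although they were called in opposite directions between them. For Becn1, Map1lc3b, Gabarapl1 and Bnip3 alike, ctrl 6 was the highest of the 12 animals and ctrl 9 the lowest ctrl animal. How far the r of these pairs rests on ctrl 6 and ctrl 9 was not tested. The genes most like each called gene by the same measure were Oxsr1 and Pde3b for Ulk1 (r = 0.94 each), Rnf128 (0.95) and Cdh24 (0.88) for Sqstm1, Gnl3 (0.96) and Grina (0.95) for Gabarapl1, and Sgk2 and Scpep1 for Bnip3 (0.95 each). The 12 animals share library preparation and scaling, and these values are descriptions.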

How the data were processed

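Libraries from 12 mice, 6 cold and 6 ctrl, were strand-specific and read in 50 nt pairs, per the labels' protocols. Demultiplexing with bcl2fastq, trimming with cutadapt and quantification with Salmon on GRCm38 are named in the submitters' processing notes, with no versions or annotation release. The deposited files give estimated counts per transcript (not normalized), effective lengths and TPM, per the file headers. TPM as deposited were not used for levels, since very short transcripts (effective length below 50 nt) took 55.2% of the total in ctrl 2, against 2.36% to 8.41% in other libraries.

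Of 140658 transcripts 140137 matched GENCODE M21 by identifier; the other 521, with 0.0866% to 0.152% of reads, were dropped. Estimated counts were summed by gene and rounded. The filter was filterByExpr at a minimum count of 10 and the scaling TMM; the test was edgeR's robust quasi-likelihood test, two-sided, with Benjamini-Hochberg adjustment over all 13876 genes, threshold 0.05; transcripts and diffSpliceDGE usage likewise over theirs. The biological coefficient of variation was 20.6%. CPM are TMM-scaled, with mean and SD over 6 animals; CPM per kb divide each transcript by its annotated length. Marker sums were compared by exact permutation over all assignments of 6 against 6 animals. The SE of a log2 fold change was computed as its absolute value over the square root of edgeR's F statistic. Intervals are 95%, from that SE and a t quantile. Near copies were transcripts of other genes with at least 90% identity over 300 nt. The steps were tested on simulated data.

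The genes, lists and tests were chosen with earlier results of these data known. Named were the 10 genes, from each list the 2 called genes of smallest p, for each called gene the 2 most alike, and Ppargc1a and Ucp1; Ulk2, Gabarap, Gabarapl2, Nbr1, Bnip3l, Pink1, Flcn, Rragb, Rragd, Ctsb, Ctsd, Kit and Sox10 were added with their values in view. A few genes that the rule names are not reported here. Other settings tried were DESeq2, limma-voom, library totals, RLE factors, count filters, an effective length offset, a muscle covariate, mouse number, and animals left out; the ratios were added after seeing the data. Tools were R 4.3.3, edgeR 4.0.16, limma 3.58.1, DESeq2 1.42.0, Python 3.11.15, matplotlib 3.10.9, pandas 2.3.3, SciPy 1.17.1 and NumPy 2.4.6.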

Additional observations from a re-analysis of the deposited data

Results flagged for a closer look

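The level of Mitf in cold 15 was 5.20 CPM, apart from the 4.31 to 4.58 CPM of the other 5 cold animals. The gap was 0.702 of the range of the group, above Dixon's critical value of 0.625 for 6 samples. Ctrl animals, at 2.96 to 6.27 CPM, spread more widely. Chance marks about 1 in 20 groups, and 20 were examined. Cold 15 also had the highest summed skeletal muscle markers, 4921 CPM. Over the 12 animals, after subtracting group means, the level of Mitf had a Pearson r of 0.61 with the muscle marker score, and with that score as a covariate its log2 fold change was 0.01, against 0.09 without it.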

How the results depend on the processing

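No paired analysis was possible because the groups share no mouse numbers. The 10 genes, the other named pathway and marker genes, Ppargc1a and Ucp1 were recomputed under the alternatives. Of 922 such comparisons 843 kept direction and side of the threshold, 46 lost the call, 19 gained it and 14 changed sign, none of them for a called gene. The sign changes were Map1lc3b (log2 fold change 0.0874 with library totals, 0.00913 with no filter, 0.0347 with the muscle covariate, 0.0158 with the mouse number term, 0.0287 without ctrl 2 and cold 15, and -0.0302 to 0.0442 with each animal left out), Tfe3 (0.0317), Ctsb (0.0218) and Sox10 (0.0013) with library totals, and Mitf (-0.0301) without ctrl 2 and cold 15. With library totals the genes lower in cold numbered 1409 in place of 2134, the higher share of called genes was 67.3% in place of 51.3%, 0 of the 10 genes were lower, 1 of their transcripts was higher, and the fibroblast marker difference was -73.5 CPM (exact permutation p = 0.0887). With an effective length offset 1 of the 10 was higher. Without ctrl 2 and cold 15 together 0 of the 10 were higher and 2 of their transcripts were lower. With each animal left out, 0 to 2 of the 10 were higher and 2 to 3 lower, 0 to 1 of their transcripts were higher and 0 to 1 lower, the cold minus ctrl difference of macrophage markers was 6.98 to 13.8 CPM, of endothelial markers 29.9 to 78.6 CPM and of erythroid markers -90.1 to 73.6 CPM, and all genes higher numbered 2023 to 2605 and lower 1836 to 2481. The causes were not tested. Mitf had 48 to 137 reads per library.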
